A study of Mus musculus with 12 samples.

Results

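Open chromatin around 4 transcription factor genes, Cdx2, Cdx1, Hnf4a and Gata6, was compared between sorted populations of mouse intestinal epithelium. The members were all accessible regions (peaks) that overlapped 1 of 4 fixed windows of the mm9 genome. The windows ran from 148060000 to 148170000 on chromosome 5 for Cdx2, from 61125000 to 61250000 on chromosome 18 for Cdx1, from 163280000 to 163450000 on chromosome 2 for Hnf4a and from 11000000 to 11140000 on chromosome 18 for Gata6. They were set by position and not by a rule on measured values, though earlier results of these data were known. They can also hold neighbouring genes. After the peaks of all populations were merged, the windows held 69 of 82365 regions: 14 at Cdx2, 11 at Cdx1, 32 at Hnf4a and 12 at Gata6.

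The cells were intestinal epithelial cells of C57Bl/6 mice with a Sox9EGFP reporter, and the groups were 4 populations named Sox9 Negative, Sox9 Sublow, Sox9 Low and Sox9 High. Each population had 3 Omni-ATAC libraries (12 in all), an assay in which Tn5 transposase cuts accessible DNA, and 12000 cells were collected per population. No treatment is labelled, and the labels used here give neither the age of the mice, nor how the reporter is built, nor whether libraries came from separate animals. The files deposited by the authors are 1 consensus list of peaks for each population, with positions and names only, so depth is unknown, no value has a replicate error and no test between populations was possible. Over the genome, Negative held 45461 peaks, Sublow 52113, Low 58356 and High 54395. The labelled cell type was not checked against marker genes, since an mm9 annotation was not used here.

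Cdx1 and Cdx2 are caudal-type homeobox factors that give the gut epithelium its intestinal character, and loss of Cdx2 lets stomach-type genes come on. Hnf4a is a nuclear receptor that drives enterocyte genes and acts with Cdx2 at many enhancers. Gata6 is a zinc finger factor of the endoderm that is needed for crypt proliferation and for parts of the absorptive and secretory programmes. Earlier work with this reporter placed most crypt base stem cells in the Low gate and dividing progenitors in Sublow. Enteroendocrine cells were mostly High, and mature absorptive cells mostly Negative.

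The start sites of these genes can be shown as sequence only on another build, GRCm38.p6. RefSeq's promoter table held entries for 2 of the 4 genes, Cdx2 with 1 start and Hnf4a with 2. Hnf4a is known for a pair of promoters, of which the upstream one is called P2 and the downstream one P1. The 250 bases before each start are printed 5′ to 3′ on the sense strand, to show what kind of sequence the starts of these genes lie in. Capitals mark matches to the motifs searched. No position was carried between builds, so which mm9 region holds which start was not determined.
Cdx2 (chr5:147307250-147307499, minus strand): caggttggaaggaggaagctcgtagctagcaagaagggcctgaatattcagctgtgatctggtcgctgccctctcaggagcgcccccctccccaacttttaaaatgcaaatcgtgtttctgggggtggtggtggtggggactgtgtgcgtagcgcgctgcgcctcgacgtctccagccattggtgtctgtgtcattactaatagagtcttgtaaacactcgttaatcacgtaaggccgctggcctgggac
Hnf4a, upstream start (chr2:163506607-163506856, plus strand): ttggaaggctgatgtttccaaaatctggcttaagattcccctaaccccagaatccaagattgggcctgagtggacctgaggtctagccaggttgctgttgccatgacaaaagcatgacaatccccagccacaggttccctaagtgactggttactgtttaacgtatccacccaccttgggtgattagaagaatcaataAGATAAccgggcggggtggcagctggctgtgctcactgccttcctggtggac
Hnf4a, downstream start (chr2:163546905-163547154, plus strand): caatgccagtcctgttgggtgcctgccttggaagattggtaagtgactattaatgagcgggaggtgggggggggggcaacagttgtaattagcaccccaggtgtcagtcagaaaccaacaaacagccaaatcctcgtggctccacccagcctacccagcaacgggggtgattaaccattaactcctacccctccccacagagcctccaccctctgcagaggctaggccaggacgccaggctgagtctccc

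Both strands of these stretches were searched for short words that CDX, HNF4 and GATA factors are known to bind. Of the CDX words, TTTATG occurred in 10.8% of 32851 promoter stretches of 250 bases and the variant TTTATT in 18.1%. Of the HNF4 words, CAAAGTCCA occurred in 0.384% and the variant CAAAGTTCA in 0.335%. Of the GATA words, AGATAA occurred in 9.99% and the variant TGATAA in 7.94%. The 3 stretches held 1 match in all, AGATAA on the sense strand of the upstream Hnf4a start. It begins 52 bases before the start and overlaps no other match. The GC content was 55.2% at Cdx2, 51.2% at the upstream and 57.6% at the downstream Hnf4a start. A match describes letters and does not show binding, and a word that is missing here says nothing of the factor.

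The share of regions that all populations had in common was highest at Cdx1 and Cdx2 and lowest at Gata6. All 4 lists held 7 of 11 regions at Cdx1 (63.6%, exact 95% interval 30.8 to 89.1%), 8 of 14 at Cdx2 (57.1%, 28.9 to 82.3%), 14 of 32 at Hnf4a (43.8%, 26.4 to 62.3%) and 2 of 12 at Gata6 (16.7%, 2.09 to 48.4%). Over all merged regions of the genome, 33.1% were held by all 4 lists. Cdx1, Cdx2 and Hnf4a thus lay above this value and Gata6 below it, and 33.1% lay inside the interval of each window. With the widest 45461 peaks of each list, Cdx1 (5 of 11) no longer lay above Hnf4a (13 of 28). When peaks had to overlap by 50% of each, all 4 lists held 5 of 15 regions at Cdx1 and 7 of 16 at Cdx2. They held 11 of 37 at Hnf4a and 1 of 13 at Gata6. The genome share was not computed under that setting, so these counts cannot be set against 33.1%. The intervals cover counting error only and treat the regions as independent.

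A single list alone held 1 region of 11 at Cdx1 (9.09%, exact interval 0.230 to 41.3%), 2 of 14 at Cdx2 (14.3%, 1.78 to 42.8%), 8 of 32 at Hnf4a (25.0%, 11.5 to 43.4%) and 5 of 12 at Gata6 (41.7%, 15.2 to 72.3%). Of all merged regions 31.9% were of this kind, a value inside the interval of each window. The low counts at the Cdx genes depended on how peaks were joined. When peaks had to overlap by 50% of each to count as shared, a single list held 5 of 15 regions at Cdx1 and 4 of 16 at Cdx2. Of the 16 regions of this kind in the windows, High held 7 (10.1% of the 69 regions, against 16.6% of all regions), Low 5 (7.25%, against 6.41%) and Negative 4 (5.80%, against 6.82%). Sublow held none of the 69 alone, which with the exact interval allows up to 5.21%, against 2.06% of all regions.

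**Figure D1:**
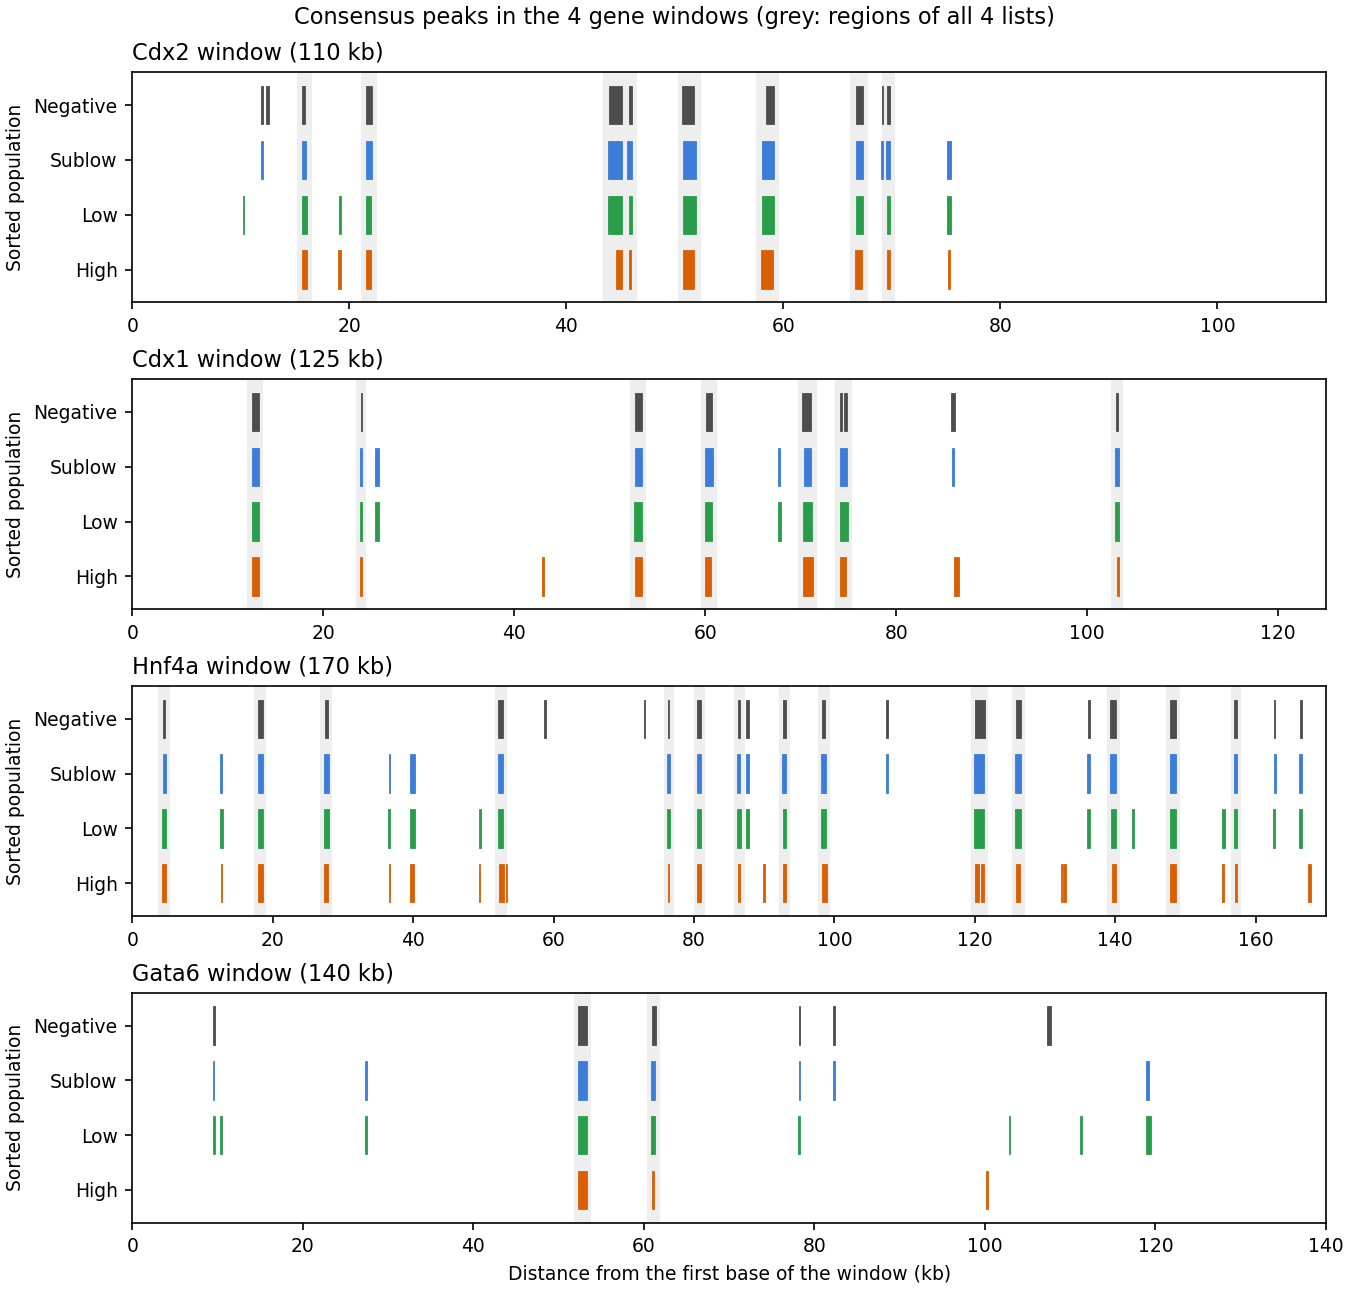
Consensus peaks of the Negative, Sublow, Low and High lists in the Cdx2, Cdx1, Hnf4a and Gata6 windows, by distance in kb from the first base of each window. Each bar is 1 peak drawn to scale, and grey marks the regions that all 4 lists held, which number 8, 7, 14 and 2. The Gata6 row of High holds 3 peaks.

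Cdx2, the main intestinal homeobox gene, had a nearly equal number of open regions in every population. Negative held 11 peaks, Sublow 11, Low 11 and High 10, over 5779, 6928, 6442 and 5227 bp. Regions of all 4 lists made up 90.2% of the bases covered by Negative, 89.6% for Sublow, 90.3% for Low and 92.3% for High, where the genome values were 75.8%, 70.4%, 65.4% and 67.2%. All 14 regions began between 10.2 and 75.1 kb from the left end of the 110 kb window. In grid windows of the same length along the genome, the median was 1 merged region and the 90th percentile 10, against 14 at Cdx2.

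The 3 widest Cdx2 regions were all held by every list. Region 7 of the window, counted from its left, spanned 1324 bp from 148103832 to 148105155. Its peak was 1224 bp (Negative), 1324 bp (Sublow), 1271 bp (Low) and 559 bp (High). The High peak covered only the right part: it began 752 bp to the right of the Sublow peak and ended 13 bp before the Sublow peak's end. Region 9 (148110699 to 148111972) was alike in all populations, with 1106 bp (Negative), 1210 bp (Sublow), 1123 bp (Low) and 992 bp (High). Region 10 (148117932 to 148119164) measured 808 bp (Negative), 1160 bp (Sublow), 1160 bp (Low) and 1152 bp (High), so here Negative was the narrow list.

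The ratio of widest to narrowest peak was largest in region 8, next to region 7. That region (148105599 to 148106090) measured 297 bp (Negative), 492 bp (Sublow), 317 bp (Low) and 199 bp (High), a ratio of 2.47. In both neighbours, regions 7 and 8, High had the narrowest peak. Region 4 (148075600 to 148076141) went the other way, at 322 bp (Negative), 414 bp (Sublow), 457 bp (Low) and 542 bp (High), widening with the reporter level.

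The 6 Cdx2 regions that were not shared by all were narrow, and 5 of them lay to the left of region 6 or to the right of region 13. On the left, Low alone held region 1 (148070200 to 148070327, 128 bp) and Negative alone held region 3 (148072338 to 148072616, 279 bp). Region 2 was held by Negative and Sublow, and region 5 by Low and High. Region 12, held by Negative (136 bp) and Sublow (176 bp), lay between 2 regions of all lists. On the right, region 14 (148135076 to 148135416) was missing from Negative alone, with 341 bp (Sublow), 321 bp (Low) and 141 bp (High), a pattern of 7.49% of all merged regions. These 6 regions were each at most 341 bp wide, and the 8 shared regions ranged from 355 to 1324 bp. Since a merged region covers all of its peaks, more lists in a region can by themselves make it wider.

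Cdx1, the second caudal homeobox gene of the gut, resembled Cdx2 in the share of shared regions. Negative held 9 peaks, Sublow 10, Low 9 and High 9, over 4261, 5148, 5443 and 4916 bp. Regions of all 4 lists made up 92.0% of the bases covered by Negative, 85.2% for Sublow, 85.1% for Low and 83.3% for High. The 11 merged regions compare with a median of 2 and a 90th percentile of 12 in grid windows of that length.

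The 3 widest Cdx1 regions of all lists lay near each other, beginning 60.0, 70.1 and 74.1 kb from the left end of the window. Region 8 (61195123 to 61196249) measured 965 bp (Negative), 766 bp (Sublow), 984 bp (Low) and 1045 bp (High), and Sublow was its narrowest list. Region 9 (61199076 to 61199911) had 1 peak of 763 bp (Sublow), 811 bp (Low) and 629 bp (High), but 2 peaks of 205 and 285 bp in Negative with a gap of 236 bp between them. Region 6 (61184971 to 61185772) measured 678 bp (Negative), 802 bp (Sublow), 717 bp (Low) and 647 bp (High). Among the Cdx1 regions of all lists, the largest ratio of widths, 2.31, was in region 11 (61227925 to 61228299). There High had 162 bp against 304 bp (Negative), 337 bp (Sublow) and 375 bp (Low).

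The Cdx1 window held the only region of the 69 whose lists were not neighbours in reporter level. Region 10 (61210781 to 61211561) was held by Negative (341 bp), Sublow (201 bp) and High (547 bp) and missing from Low alone, a pattern of 0.526% of all merged regions. Its peaks hardly coincided: Sublow lay inside the Negative peak with 201 bp in common, while High shared 107 bp with Negative and 4 bp with Sublow. With a reciprocal overlap of at least 50% required, the number of Cdx1 regions held by 1 list alone was 5 in place of 1. Regions 3 and 7 were held by Sublow and Low only, with widths of 344 and 428 bp in region 3 and 217 and 385 bp in region 7. Region 4 (61167860 to 61168132, 273 bp) was held by High alone.

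**Figure D2:**
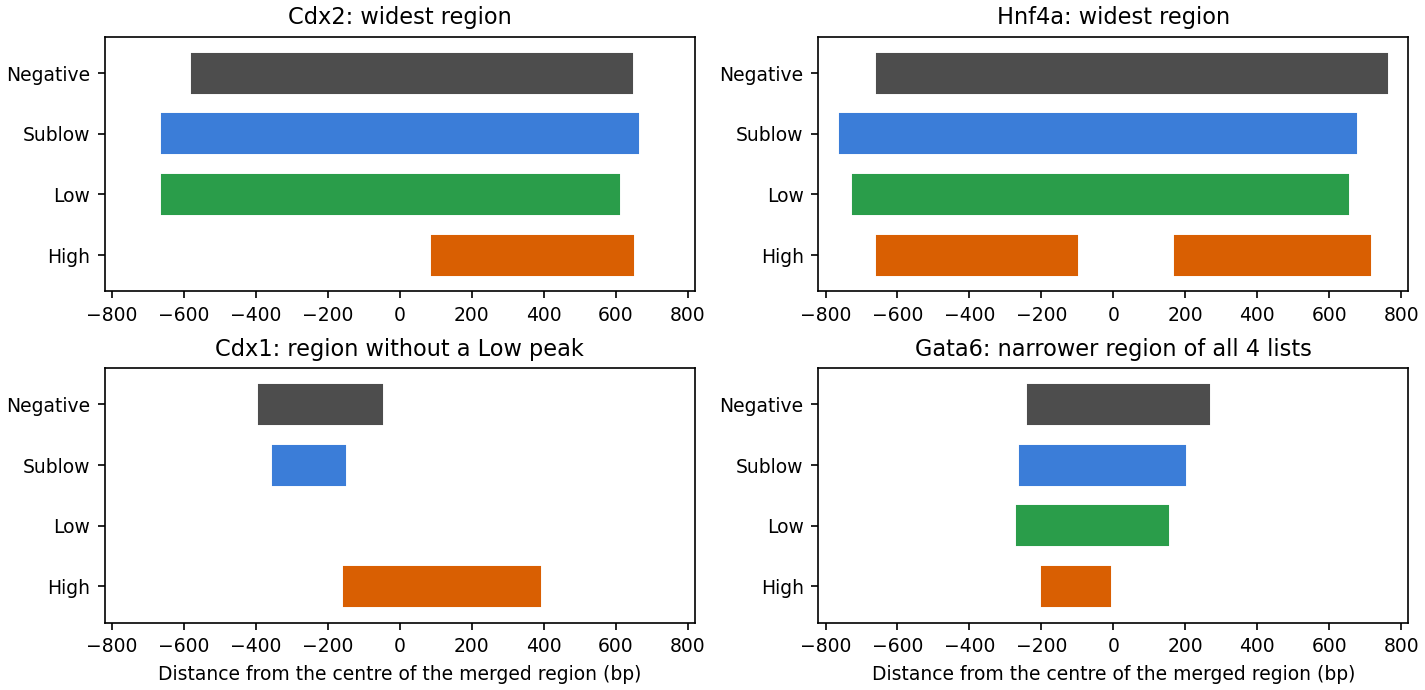
Peaks of the 4 lists in 4 single regions, by distance in bp from the centre of the merged region. High covers 559 bp on the right side of the widest Cdx2 region, has 2 peaks in the widest Hnf4a region, overlaps Sublow by 4 bp in the Cdx1 region without a Low peak, and has 191 bp in the narrower Gata6 region of all lists.

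Hnf4a had the most open chromatin of the 4 windows, per length as well as in number. Its 32 merged regions made 18.8 regions per 100 kb, against 12.7 at Cdx2, 8.80 at Cdx1 and 8.57 at Gata6. Grid windows of its length had a median of 2 regions and a 90th percentile of 15. Negative held 21 peaks, Sublow 22, Low 24 and High 25, over 10214, 12514, 13286 and 10713 bp. High thus had the most peaks but covered fewer bases than Sublow and Low. Regions of all 4 lists made up 80.1% of the bases covered by Negative, 77.6% for Sublow, 70.9% for Low and 74.5% for High.

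The widest region of all 69 lay at Hnf4a. Region 20 spanned 1522 bp from 163399878 to 163401399, wider than 98.4% of merged regions by rank. Negative had 1 peak of 1417 bp there, Sublow 1 of 1437 bp and Low 1 of 1377 bp. High had 2 peaks of 554 and 543 bp, with a gap of 274 bp from 163400537 to 163400810. Region 27 (163427757 to 163428702) was nearly the same in every list, with 890 bp (Negative), 895 bp (Sublow), 895 bp (Low) and 946 bp (High). Region 25 (163419257 to 163420143) was wider in Negative (781 bp) and Sublow (844 bp) than in Low (610 bp) and High (532 bp).

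Some other Hnf4a regions were narrow in Negative. The largest ratio of widths, 2.97, was in region 1 (163284190 to 163284842), which measured 210 bp (Negative), 423 bp (Sublow), 599 bp (Low) and 624 bp (High). Region 12 (163356180 to 163356650) was narrow at both ends of the reporter range, with 212 bp (Negative), 433 bp (Sublow), 471 bp (Low) and 173 bp (High). Region 14 (163366152 to 163366707) had the same form, with 240, 444, 556 and 308 bp in the same order. By contrast, the 4 peaks of region 3 (163297851 to 163298579) differed by few bases, from 702 to 709 bp.

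Regions missing from Negative alone or from High alone made up 7 of the 32 at Hnf4a. Negative alone lacked 3 of them (9.38% of the 32, against 7.49% of all merged regions), regions 2, 5 and 6. Region 6 (163319487 to 163320194) was wide where present, with 698 bp (Sublow), 696 bp (Low) and 689 bp (High), and no Negative peak was listed there. Region 2 (163292500 to 163292937) measured 269, 438 and 162 bp in these lists, and region 5 (163316479 to 163316690) measured 190, 209 and 168 bp. High alone lacked 4 regions, which was 12.5% of the window's regions against 8.92% of all merged regions. They were region 15 (163367371 to 163367837; 454, 429 and 441 bp in Negative, Sublow and Low), region 24 (163416013 to 163416443; 320, 431 and 348 bp), region 30 (163442477 to 163442855; 260, 202 and 307 bp) and region 31 (163446164 to 163446587; 267, 362 and 409 bp).

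Single lists held 8 Hnf4a regions, all of them at most 412 bp wide. High alone held 5 of them (15.6% of the window's 32 regions, against 16.6% of all merged regions). These were region 9 (163333212 to 163333402, 191 bp), region 16 (163369826 to 163370043, 218 bp), region 22 (163412326 to 163412412, 87 bp), region 23 (163412617 to 163412923, 307 bp) and region 32 (163447492 to 163447903, 412 bp). They held 1215 bp, or 11.3% of the bases covered by High in the window, against 14.8% over the genome. Negative alone held region 10 (163338571 to 163338853, 283 bp) and region 11 (163352937 to 163353031, 95 bp), and Low alone held region 26 (163422435 to 163422676, 242 bp). Low and High shared regions 7 and 28, and Negative and Sublow shared region 19.

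At Gata6, the gene of the endodermal GATA factor, the High list held 3 of the 12 regions. High had 3 peaks over 1492 bp, against 6 over 2671 bp in Negative, 7 over 2558 bp in Sublow and 9 over 3443 bp in Low. In grid windows of the same length, the median was 1 peak of High and the 90th percentile 9, and 2 and 13 for merged regions. The 3 peaks of High were thus above the median of the grid windows, which were tiled along the genome and not placed on genes. The share of merged regions that High held was smaller than in the genome. High held 25.0% of the 12 merged regions (exact interval 5.49 to 57.2%), against 65.1% of all merged regions. In the other windows High held 9 of 11 regions at Cdx1 (81.8%), 24 of 32 at Hnf4a (75.0%) and 10 of 14 at Cdx2 (71.4%). Low held 9 of the 12 Gata6 regions (75.0%, against 69.8% of all), Sublow 7 (58.3%, against 62.8%) and Negative 6 (50%, against 53.9%).

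Pairs of lists were then compared gene by gene, over the regions that either list of the pair held. Between Sublow and Negative, Sublow and not Negative held 1 region of 12 at Cdx2, 2 of 10 at Cdx1, 3 of 24 at Hnf4a and 2 of 8 at Gata6, against 24.0% over the genome. Negative and not Sublow held 1, 0, 2 and 1 of the same regions, against 11.5%. Between Low and Sublow, Low and not Sublow held 2 of 13 at Cdx2, 0 of 10 at Cdx1, 3 of 25 at Hnf4a and 3 of 10 at Gata6, against 17.2%, and Sublow and not Low held 2, 1, 1 and 1, against 8.04%. The lists of these pairs thus differed by at most 3 regions in either direction at each of the 4 genes.

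Low and High, which are not next to Negative in reporter level, were then each compared with it. Low and not Negative held 3 of 14 at Cdx2, 2 of 10 at Cdx1, 6 of 27 at Hnf4a and 5 of 11 at Gata6, against 33.4% over the genome. Negative and not Low held 3, 1, 3 and 2 of them, against 13.8%. High and not Negative held 2 of 13 at Cdx2, 1 of 9 at Cdx1, 10 of 31 at Hnf4a and 1 of 7 at Gata6, against 36.1%, and Negative and not High held 3, 0, 7 and 4, against 22.8%. At Hnf4a the difference between the ends of the reporter range went both ways, with 10 regions for High (32.3%) and 7 for Negative (22.6%). Both shares were near those of the genome.

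Between Low and High, 10 Gata6 regions were held by either list. Low and not High held 7 of these (70.0%, exact interval 34.8 to 93.3%), against 26.0% over the genome. High and not Low held 1 of them, against 20.6% over the genome. In the Cdx2 window the same comparison gave 1 region of 11 for Low and not High, at Cdx1 2 of 11 and at Hnf4a 5 of 29. High and not Low held 0, 2 and 5 of these. The window has 1 list per population and 12 regions, so the difference has no replicate check, and fewer called peaks and less accessible chromatin in High cannot be told apart from these lists. The same holds for fewer cells with an open region and less open DNA in each cell.

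The widest Gata6 region was common to all populations and nearly identical in them. Region 4 (11052278 to 11053373) measured 1008 bp (Negative), 1037 bp (Sublow), 1021 bp (Low) and 1096 bp (High), and 990 bp were covered by every list. It made up 73.5% of all bases that High covered in the window, against 37.7% in Negative, 40.5% in Sublow and 29.7% in Low. Region 5 (11060880 to 11061413), the only other region of all lists, measured 504 bp (Negative), 459 bp (Sublow), 419 bp (Low) and 191 bp (High). Its width was lower at each step of the reporter level, and the High peak lay inside the peaks of the other lists.

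The remaining Gata6 regions spanned 157 to 569 bp, and each was held by at most 3 lists. High alone lacked region 1 (11009424 to 11009711), with 234 bp (Negative), 181 bp (Sublow) and 288 bp (Low), and region 6 (11078087 to 11078358), with 142, 134 and 272 bp. These 2 made up 16.7% of the 12 regions (exact interval 2.09 to 48.4%), against 8.92% of all merged regions. Low alone held 3 regions, or 25.0% of the 12 (exact interval 5.49 to 57.2%), against 6.41% of all merged regions. They were region 2 (11010252 to 11010579, 328 bp), region 9 (11102773 to 11102929, 157 bp) and region 11 (11111167 to 11111383, 217 bp). Negative alone held region 10 (11107276 to 11107751), which at 476 bp was the widest of the 16 regions of a single list in the 4 windows. High alone held region 8 (11100152 to 11100356, 205 bp). Sublow and Low shared regions 3 and 12, and Negative and Sublow shared region 7.

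**Figure D3:**
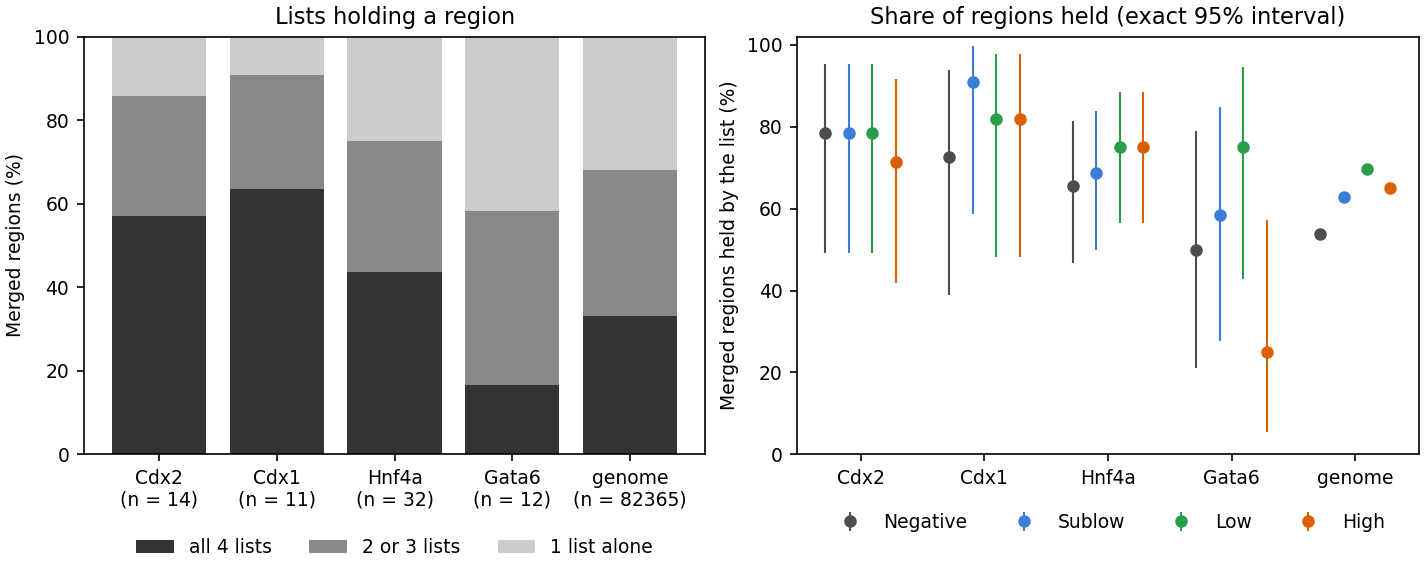
Left, the percentage of merged regions held by all 4 lists, by 2 or 3 lists or by 1 list alone in each window and in the genome. Right, the percentage held by each list with its exact 95% interval. High held 25.0% of the Gata6 regions and from 71.4 to 81.8% in the other windows.

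Regions held by some of the lists were mostly shared between neighbouring reporter levels, in the windows and in the genome. The windows held 22 regions of 2 or 3 lists (31.9% of 69, against 34.9% of all merged regions). Of these, 21 were held by lists at adjoining reporter levels, from Negative over Sublow and Low to High (95.5%, exact interval 77.2 to 99.9%), against 93.7% over the genome. The exception was region 10 of Cdx1. No region of the 69 was missing from Sublow alone, a pattern of 0.357% of all merged regions.

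Over bases, the Jaccard index (bases covered by both lists divided by bases covered by either) was highest for Sublow and Low in every window, at 0.840 for Cdx1, 0.830 for Cdx2, 0.795 for Hnf4a and 0.598 for Gata6, against 0.743 over the genome.

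The other pairs of lists also overlapped least at Gata6. For Low and High the index was 0.703 at Cdx2, 0.632 at Cdx1, 0.603 at Hnf4a and 0.326 at Gata6, against 0.541 over the genome. For Negative and High it was 0.633 at Cdx1, 0.570 at Cdx2, 0.502 at Hnf4a and 0.405 at Gata6, against 0.441. In each of the 6 pairs the index was above the genome value at Cdx2, Cdx1 and Hnf4a and below it at Gata6. For Negative and Sublow that margin was small at Gata6, 0.594 against 0.612.

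**Figure D4:**
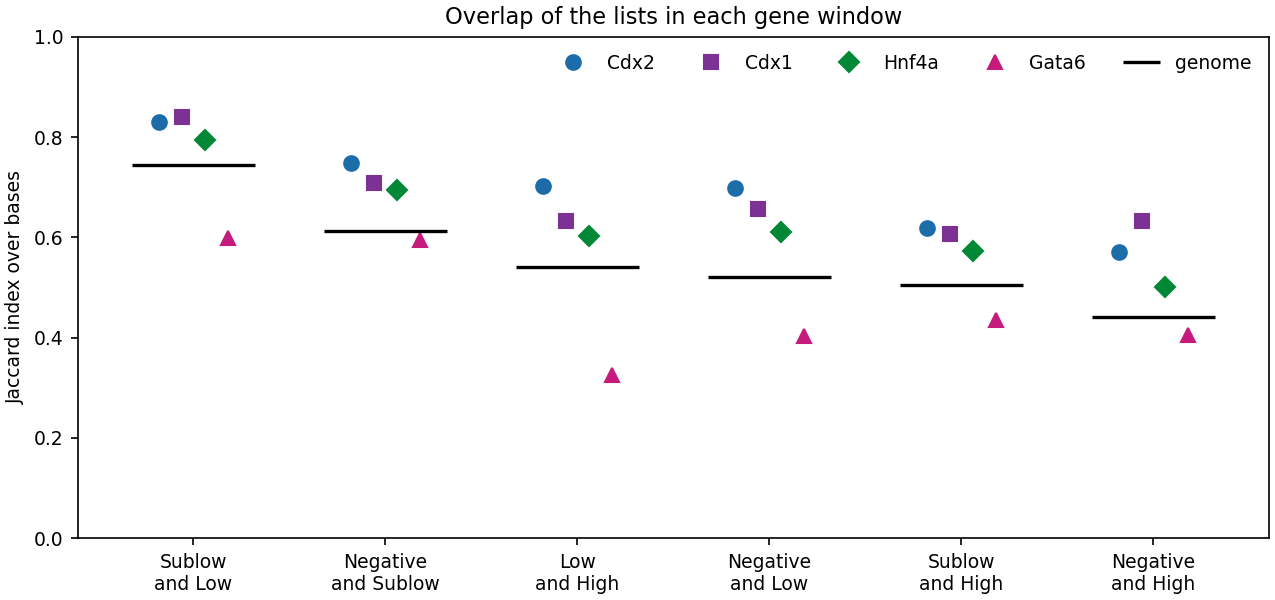
Jaccard index over bases for each pair of lists in the 4 windows (symbols) and over the genome (black lines). Gata6 lies below the genome line and the other windows above it in each pair, with the widest separation for Low and High (0.326 at Gata6 and 0.703 at Cdx2).

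Peak widths were compared in the 29 regions of the windows that had 1 peak in each list. The median width was 579 bp (Negative), 670 bp (Sublow), 610 bp (Low) and 542 bp (High), against 529, 658, 643 and 565 bp in 25643 such regions of the genome. Sublow was wider than Negative in 26 of the 29, and the median log2 ratio of widths was 0.19, against 0.24 over the genome. High was narrower than Low in 19 and wider in 9, with a median log2 ratio of -0.15, against -0.11. High was the narrowest list, ties included, in 15 of the 29 (51.7%, against 32.7% over the genome) and Negative in 12 (41.4%, against 56.9%). High was narrowest in 5 of 8 at Cdx2, 2 of 6 at Cdx1, 7 of 13 at Hnf4a and 1 of 2 at Gata6. No interval was computed for these shares, so how far they depart from the genome is not known.

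By gene, the median log2 ratio of High to Low width was -0.24 at Cdx2 (8 regions), -0.13 at Cdx1 (6 regions), -0.03 at Hnf4a (13 regions) and -0.52 at Gata6 (2 regions). With peaks up to 500 bp apart merged it was -0.01 at Cdx2 and -0.12 at Hnf4a, so the order of the genes depended on the merging. The Gata6 value averages a ratio above and a ratio below 0, and it was 0.10 under the settings that kept only region 4. Among all 31 regions of all lists, the widest list was at least 2 times as wide as the narrowest in 7. High was the narrowest in 5 of these, but in only 1 of the 3 at Hnf4a. These counts were not computed over the genome, so they cannot be set against a genome share. Width is the only quantity per peak in the lists and is not a measure of signal.

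**Figure D5:**
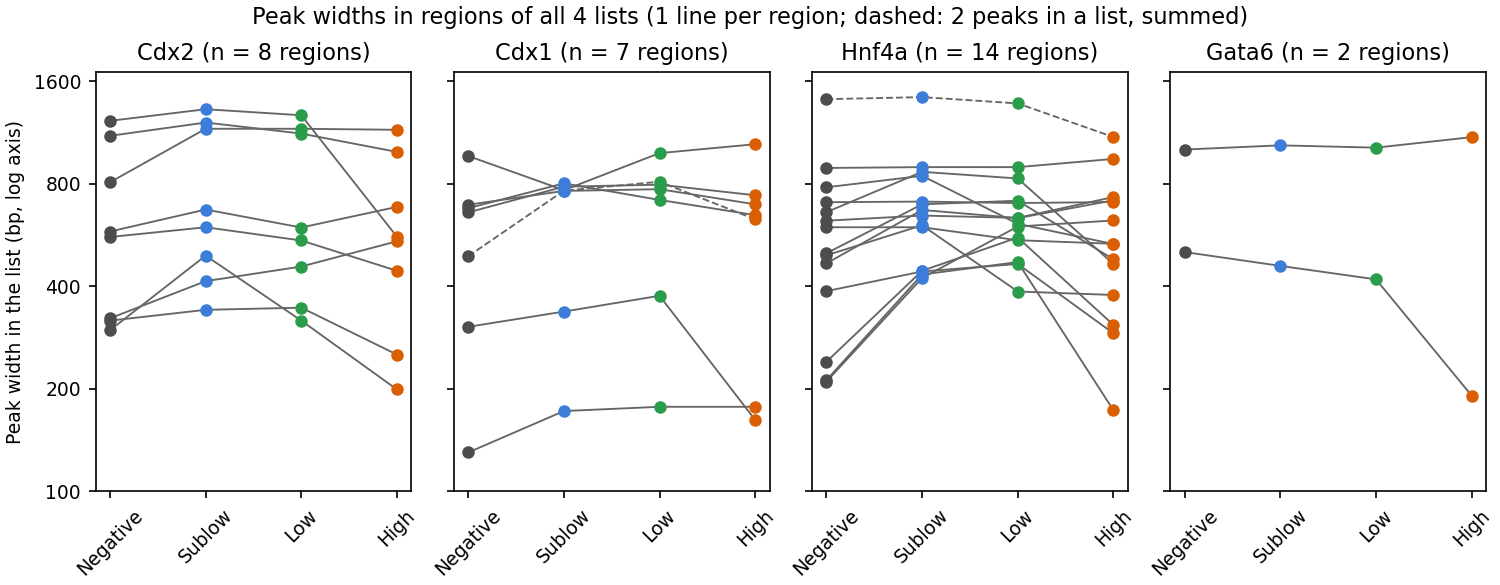
Peak width in bp on a log axis in each list, with 1 line for each region of all 4 lists at Cdx2 (8), Cdx1 (7), Hnf4a (14) and Gata6 (2). Dashed lines mark the regions with 2 peaks in a list, drawn at their summed width. The widest Cdx2 region measures 1271 bp in Low and 559 bp in High, and the widest Gata6 region lies between 1008 and 1096 bp.

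Open regions were spaced more closely at Cdx2 and Hnf4a than at the other genes. The median distance between neighbouring merged regions was 2851 bp at Cdx2, 4342 bp at Hnf4a, 7506 bp at Gata6 and 8132 bp at Cdx1, against 8269 bp over the genome. The longest stretch without a peak between regions was 24.8 kb at Gata6, just left of region 4, and 21.7 kb at Cdx2, just left of region 7. Hnf4a had no such stretch over 14.1 kb and Cdx1 none over 17.0 kb. Stretches between the outermost regions and the ends of a window were not counted, and they can be longer. At Cdx2 the last region ended at 148135416 and the window at 148170000. A region in a window need not belong to the gene the window is named for. In the order of protein-coding genes of RefSeq's GRCm38.p6 table, Cdx2 lies between Pdx1 and Urad, Cdx1 between Slc6a7 and the predicted gene Gm52351, Hnf4a between R3hdml and Ttpal, and Gata6 between Mib1 and Rbbp8. Which of these genes reach into the mm9 windows, and which gene a region acts on, was not analysed here.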

How the data were processed

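Open chromatin of 4 sorted populations was measured in 12 libraries. Per the submitters' processing notes, the tools were MACS2 2.1.2, deepTools 2.5.2, Picard 2.10.3, Bowtie2 2.3.4 and Trim Galore 0.4.3, with mm9. How libraries were combined, any Tn5 shift and the settings were not given in the sources used here. Each file deposited by the authors is the peak list of 1 population, with positions in bp and no score, height or count.

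Each list held at least 1 peak whose start equalled its end, which fits positions that count from 1 and include the end; widths were computed so. Peaks of the 4 lists that overlapped by 1 bp or touched were merged over the whole genome, and regions that overlapped a gene window were kept. Shares have exact (Clopper-Pearson) intervals of 95%. Grid windows tiled all chromosomes but Y at the length of each gene window. Merging was run on 20000 simulated regions, of which 100% received the right presence pattern. These regions lay far apart and the peaks of each always overlapped, so this checks only that the code runs as meant. Close neighbours, chained overlaps and split peaks were not simulated. The analysis used matplotlib 3.10.9, scipy 1.17.1, pandas 2.3.3 and numpy 2.4.6 under Python 3.11.15.

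The members and lists were chosen with earlier results of these data known. Regions were named by a rule: those of 1 list alone, those that 1 list lacks and those whose lists are not neighbours in reporter level. Of the regions of all 4 lists, the 3 widest in each window and that with the largest ratio of widths were also named. Other regions named in the text (Cdx2 regions 2, 4, 5 and 12, Cdx1 regions 3 and 7, Hnf4a regions 3, 7, 12, 14, 19 and 28, and Gata6 regions 3, 7 and 12) were chosen after their values were seen. A list of 20 further intestinal transcription factors and a set of cell type markers were not used, since they need an mm9 annotation. The 8 alternatives are given in the closing section.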

Additional observations from a re-analysis of the deposited data

How the results depend on the processing

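No paired analysis was possible because the deposited lists carry no values of single libraries, which also means that leaving out a replicate could not be tried. Absence from a list means only that no consensus peak was listed there, and depth is unknown. Of 252 values under 8 alternatives, 222 were classed as kept, 26 as moved and 4 as reversed. Kept counts stayed within 1.5 times the reported value, and kept shares within the exact interval. Log2 ratios of width that held their sign were among the kept even where their size changed more. An example is Cdx2, at -0.24 in the main setting and -0.01 with peaks up to 500 bp apart merged. The share of Gata6 regions held by High stayed between 20% and 27.3% under all 8.

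With the widest peaks, 50% of the shortest list (22730 per list), regions numbered 6 at Cdx2, 6 at Cdx1, 14 at Hnf4a and 4 at Gata6. Of these, 4, 4, 9 and 1 were held by all lists and 1 (Cdx2), 1 (Cdx1), 2 (Hnf4a) and 3 (Gata6) by 1 list alone. High held 100% of those at Cdx1. Low covered 8792 bp at Hnf4a, and at Gata6 Sublow covered 1037 bp and Low 1590 bp. These lists hold fewer peaks by construction. With the widest 45461 per list, 1 list alone held 4 of 13 regions at Cdx2, 2 of 11 at Cdx1 and 3 of 9 at Gata6. A reciprocal overlap of 50% gave 4 of 16 such regions at Cdx2, 5 of 15 at Cdx1 and 13 of 37 at Hnf4a. Merging peaks up to 500 bp apart gave 1 of 11 at Cdx2, and windows lengthened by 10 kb at both ends gave 4 of 16 there. Gata6 had 1 region of all lists with the reciprocal overlap, with peaks of at least 200 bp and with either set of widest peaks, and the median log2 ratio of High to Low width there was then 0.10, since only region 4 was left. The cause of the other changes was not tested.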
